A study of Mus musculus with 3 samples.

Results

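The Egr transcription factors and their Nab corepressors, 6 genes (Egr1, Egr2, Egr3, Egr4, Nab1 and Nab2) of 22072 gene symbols listed, were followed in sorted mouse limb cells at 3 embryonic stages. The genes were taken by name as a family with its partners. No rule used their values, but earlier results of these data were known. All 6 were found in every library. RNA was sequenced from ScxGFP-positive cells of embryonic hindlimbs of mixed strain background, at E11.5 (a pool of 18 hindlimbs), E13.5 (12) and E15.5 (11), with 1 library per stage. Every group carries the ScxGFP reporter, in which GFP marks cells where scleraxis (Scx), a factor found in progenitors of tendon and ligament, is active. The cells were frozen after sorting and their RNA was amplified as cDNA. Levels are in FPKM, fragments scaled to transcript length and to library size, a per-length unit in which genes of a library can be compared. With 1 library per stage there is no replicate check and no test, so each difference is between 2 libraries.

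Egr proteins carry zinc fingers that bind GC-rich sites, and Egr1, Egr2 and Egr3 belong to the immediate-early genes, which are transcribed within minutes of growth factor, mechanical or stress signals. That induction runs through the kinase ERK and the serum response factor SRF, which binds CArG boxes together with ETS-domain partners of the Elk group. Nab1 and Nab2 bind Egr1, Egr2 and Egr3 and repress their activity, whereas Egr4 lacks the Nab-binding region, and Nab2 is itself a known target of Egr proteins. In tendon, Egr1 and Egr2 are known to act on collagen genes and on Scx.

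From the coverage, about 14099400 reads fell on listed transcripts in the E11.5 library, 12482300 in the E13.5 library and 17521300 in the E15.5 library. Intervals below are approximate 95% intervals from these read numbers and cover counting error only. They leave out the variation between animals, sorts and amplifications. Scx stood at 375, 410 and 213 FPKM in stage order, and of 6 tendon cell markers, Scx included, 3 had at least 1 FPKM in the E11.5 library and 6 in each later one. Tnmd, the tenomodulin gene, was listed at 0 at E11.5.

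Sequence around the transcription start is shown for the Egr and Nab genes in which a searched motif was found. RefSeq promoter windows (GRCm38.p6, 300 bases around the start) were matched for 4 of the 6 genes: Egr2, Egr4, Nab1 and Nab2. They were searched on both strands for the Egr site GCGNGGGCG, for the CArG box and for the cyclic AMP response element TGACGTCA. The Egr2 window, on the plus strand, holds a CArG box that begins 72 bases before the start. The 250 bases before the start, chr10:67537619-67537868, are printed with the box in capitals. Of 5 RefSeq windows of this gene, 4 hold a CArG box, and the start of this one is also the GENCODE start. It holds no match to the other motifs:
Egr2 promoter: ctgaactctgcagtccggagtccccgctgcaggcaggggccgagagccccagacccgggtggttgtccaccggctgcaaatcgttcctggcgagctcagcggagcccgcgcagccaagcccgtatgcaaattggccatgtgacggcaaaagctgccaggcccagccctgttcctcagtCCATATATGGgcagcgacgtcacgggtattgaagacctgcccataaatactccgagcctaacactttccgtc

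The Nab1 window, on the minus strand at chr1:52500399-52500698, holds 3 matches to the Egr site. They begin 141, 109 and 38 bases before the RefSeq start. The GENCODE start of Nab1 lies 231 bases further upstream, so the same matches begin 90, 122 and 193 bases after that start, inside its transcript. Each is printed in capitals with 9 bases either side, the first of them read on the opposite strand:
Nab1 site 1, chr1:52500572-52500598: ccccgcggcCGCCCACGCcgggatctg
Nab1 site 2, chr1:52500540-52500566: ctcggccgcGCGTGGGCGggagccgga
Nab1 site 3, chr1:52500469-52500495: cggggcgggGCGGGGGCGgcggaggtg

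Of 32851 promoter windows of this length, 5.55% held the Egr site, 1.63% a CArG box and 1.79% the cyclic AMP response element. The Nab1 window had a GC content of 81.7% and the Egr2 window 60%. The windows of Nab2 and Egr4 held none of the 3 motifs. That says only that these letters are not in those 300 bases, and a match is a description of sequence, not a measured binding site.

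Egr1, the most abundant member at every stage, measured 13.8 FPKM in the E11.5 library (interval 13.2 to 14.5), 87.5 in the E13.5 library (85.7 to 89.4) and 298 in the E15.5 library (295 to 301). The 3 levels lie far apart, with E15.5 highest and no overlap of the counting intervals. The E13.5 library was 6.32 times the E11.5 library (5.99 to 6.67), the E15.5 library 3.41 times the E13.5 library (3.33 to 3.49), and the whole span came to 21.5 times (20.5 to 22.6). Among all listed genes, 1930 were above Egr1 at E11.5, 210 at E13.5, then 72 at E15.5. The gene lies on chromosome 18 (NM_007913, mm9, 35020861 to 35024610).

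Egr2, also called Krox20 and known for hindbrain patterning and for myelination by Schwann cells, was at 0.328 FPKM in the E11.5 library (0.231 to 0.452), 2.42 in the E13.5 library (2.12 to 2.76) and 5.15 in the E15.5 library (4.74 to 5.59). It was lowest at E11.5 and highest at E15.5, again with separate intervals. The first step was a 7.39-fold difference in FPKM (5.21 to 10.7), the later step 2.12-fold (1.82 to 2.49) and the whole span 15.7-fold (11.3 to 22.5). The first-step and whole-span intervals of Egr2 contain the values of Egr1 for the same comparisons, 6.32 and 21.5, while the later-step interval lies below that of Egr1. Egr2 lies on chromosome 10 (NM_010118, mm9, 67000617 to 67004936).

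Egr3, known for its role in the muscle spindle, was low in all 3 libraries. It was at 0.138 FPKM in the E11.5 library (0.0578 to 0.278), 0.431 in the E13.5 library (0.260 to 0.671) and 0.719 in the E15.5 library (0.510 to 0.986), from about 7.52, 19.2 and 38.3 reads. The order of the 3 values is that of Egr1 and Egr2, but neighbouring intervals overlap. The first step was 3.12-fold (1.28 to 8.46), and the later step, 1.67-fold, had an interval of 0.941 to 3.05 that includes no difference. The whole span was 5.20-fold (2.35 to 13.3). The deposited model of Egr3 (NM_018781, mm9, chromosome 14, 70477252 to 70479964) is 1416 bases long, against 3940 bases for the GENCODE M21 transcript cross-referenced to it, so reads from the rest of that longer transcript had no place in this value.

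Egr4, the member without the Nab-binding region, was close to the detection limit. It was at 0.0237 FPKM in the E11.5 library, 0.179 in the E13.5 library and 0.149 in the E15.5 library, from about 1.91, 11.8 and 11.8 reads. E13.5 and E15.5 did not differ beyond counting error (ratio 0.833, 0.339 to 2.04), and the E13.5 level was 7.56 times that of E11.5 with an interval of 1.64 to 74.7. The gene lies on chromosome 6 (NM_020596, mm9, 85461116 to 85463536).

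**Figure D1:**
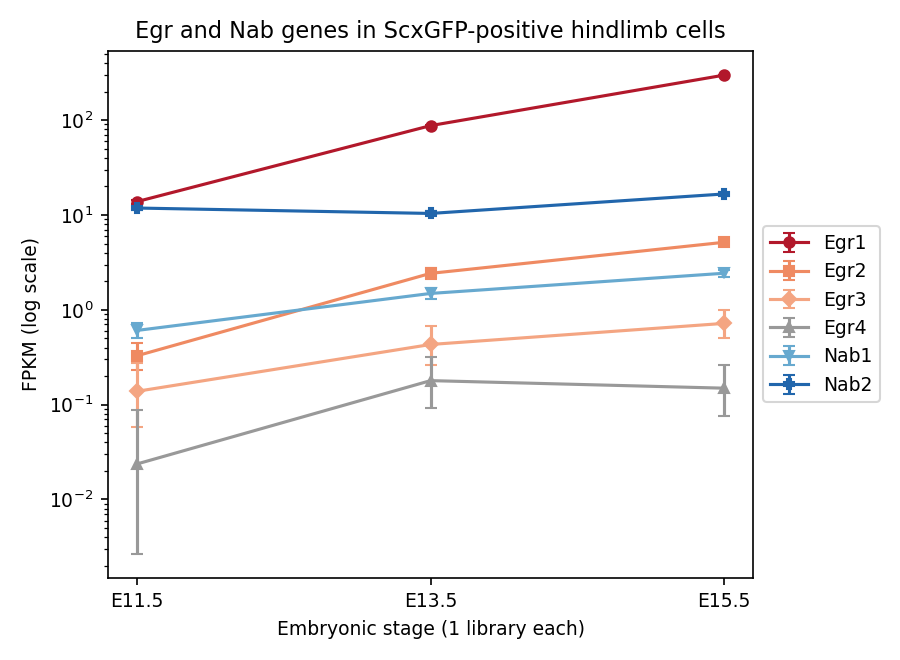
FPKM (log scale) of the 4 Egr and 2 Nab genes in the library of each stage, with bars for approximate 95% counting intervals. Egr1 runs from 13.8 to 298 FPKM and Egr2 from 0.328 to 5.15, while Nab2 stays between 10.4 and 16.6.

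Egr1 made up nearly all Egr transcript in this unit: 96.6% of summed Egr FPKM at E11.5 (95.4% to 97.5%), 96.7% at E13.5 (96.2% to 97.0%), then 98.0% at E15.5 (97.9% to 98.2%). Egr2 contributed 2.29%, 2.68% and 1.69% in stage order. Egr1 was 42.2 times Egr2 at E11.5, 36.1 times at E13.5, then 57.9 times at E15.5. A sum over the family is therefore close to Egr1 alone.

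Nab2, the corepressor known to be induced by Egr proteins, was within 2-fold between any pair of stages, with its largest step late. It was at 11.8 FPKM in the E11.5 library (11.2 to 12.5), 10.4 in the E13.5 library (9.68 to 11.1) and 16.6 in the E15.5 library (15.8 to 17.5). The E13.5 value was lowest and the E15.5 value highest. In fold, E13.5 was 0.877 of E11.5 (0.801 to 0.960) and E15.5 was 1.60 times E13.5 (1.47 to 1.75). The small difference at the first step turned its direction, from -0.17 to 0.12 on the log2(FPKM + 1) scale, when only the more abundant Nab2 transcript was used. Nab2 lies on chromosome 10 (mm9, 127097974 to 127103759), where its last 70 bases overlap the end of Stat6, a gene for a cytokine-activated transcription factor. Stat6 was at 0.679, 0.880 and 2.18 FPKM, and with no strand stated, reads from the shared bases cannot be told apart. In the GENCODE annotation (GRCm38), Nemp1 and the antisense gene Gm16229 also overlap Nab2 on the opposite strand, with the same limit.

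Nab1, the other corepressor, was far lower, at 0.606 FPKM in the E11.5 library (0.502 to 0.726), 1.49 in the E13.5 library (1.30 to 1.69) and 2.43 in the E15.5 library (2.21 to 2.66). Its order over the stages matched that of Egr1 and Egr2, with separate intervals. E13.5 was 2.45 times E11.5 (1.96 to 3.09), E15.5 was 1.63 times E13.5 (1.39 to 1.92), and the whole span was 4.01-fold (3.27 to 4.94). Nab2 was 19.5 times Nab1 at E11.5, 6.97 times at E13.5, then 6.85 times at E15.5, so that Nab1 made up 4.87% of Nab FPKM at E11.5 (4.07% to 5.83%), 12.5% at E13.5 (11.0% to 14.2%), then 12.7% at E15.5 (11.6% to 13.9%). Nab1 lies on chromosome 1 (NM_008667, mm9, 52512693 to 52557292).

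The Nab2 total held 2 transcripts with different profiles. They differ by exon 6 of 7, a whole coding exon of 192 bases or 64 codons (GENCODE M21, GRCm38, minus strand, chr10:127662731-127662922), which NM_008668 includes and NM_001122895 skips. The reading frame is kept. The exon is printed in the direction of the transcript:
Nab2 exon 6: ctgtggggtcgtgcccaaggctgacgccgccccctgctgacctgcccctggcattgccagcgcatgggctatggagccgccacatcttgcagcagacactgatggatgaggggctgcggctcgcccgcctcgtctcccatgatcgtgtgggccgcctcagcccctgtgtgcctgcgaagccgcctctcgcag

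The transcript with the exon, NM_008668, was at 8.68 FPKM in the E11.5 library, 9.49 in the E13.5 library and 14.4 in the E15.5 library. The transcript without it, NM_001122895, was at 3.16 FPKM in the E11.5 library (2.80 to 3.54), 0.883 in the E13.5 library (0.683 to 1.12) and 2.28 in the E15.5 library (1.98 to 2.62), so it was lowest in the middle library. Its E13.5 level was 0.280 of that at E11.5 (0.211 to 0.366), whereas the longer transcript stood at 1.09 (0.992 to 1.21). The exon-less form was 26.7% of Nab2 FPKM at E11.5 (24.2% to 29.4%), 8.51% at E13.5 (6.75% to 10.7%), then 13.7% at E15.5 (12% to 16%). The division of reads between transcripts that share most of their bases is an estimate by the authors' software, and the error of that estimate is not part of these intervals.

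**Figure D2:**
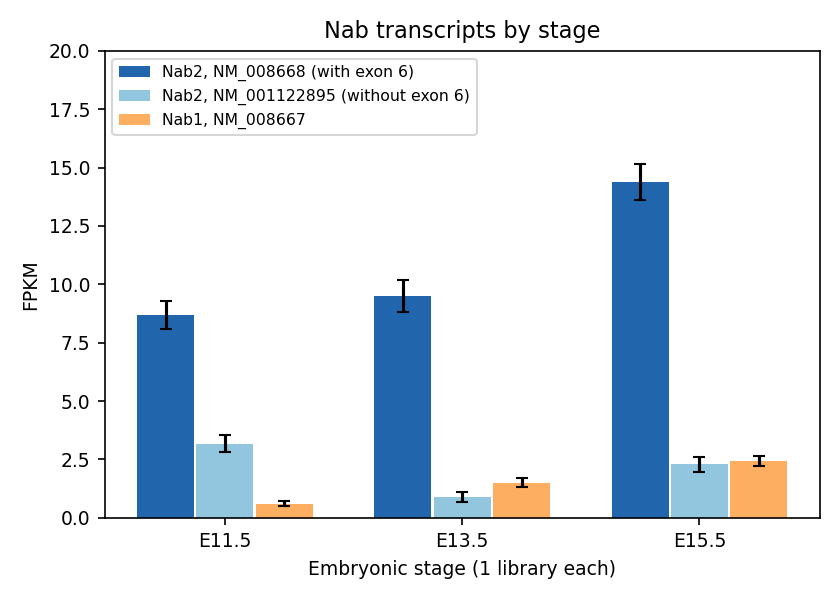
FPKM of the 2 Nab2 transcripts and of Nab1 at each stage, with bars for approximate 95% counting intervals. The Nab2 transcript without exon 6 falls between 0.883 and 3.16 FPKM with its lowest value at E13.5, while the transcript with exon 6 is highest at E15.5, at 14.4 FPKM.

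Set against each other, Egr and Nab transcripts were close to balance at E11.5 and far from it later. Summed Egr FPKM was 14.3 at E11.5, 90.6 at E13.5, then 304 at E15.5, against 12.4, 11.9 and 19.1 for summed Nab FPKM. The Egr to Nab ratio was 1.15 at E11.5 (1.07 to 1.24), 7.63 at E13.5 (7.15 to 8.15), then 15.9 at E15.5 (15.2 to 16.7). It was thus 6.62 times higher at E13.5 than at E11.5 and 2.09 times higher at E15.5 than at E13.5. Both sums were higher at E15.5 than at E13.5, whereas the Nab sums of E11.5 and E13.5 lay close together.

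The ratio follows Egr1. Without Egr1, the other Egr genes stood at 0.0394 of Nab FPKM at E11.5 (0.0290 to 0.0536), 0.256 at E13.5 (0.222 to 0.294), then 0.315 at E15.5 (0.288 to 0.346), below Nab at each stage. Egr2 against Nab1, the minor pair, was at 0.541 at E11.5, 1.63 at E13.5, then 2.12 at E15.5, with Nab1 above Egr2 in the first library and below it in the others. These are ratios of RNA, and proteins were not measured.

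**Figure D3:**
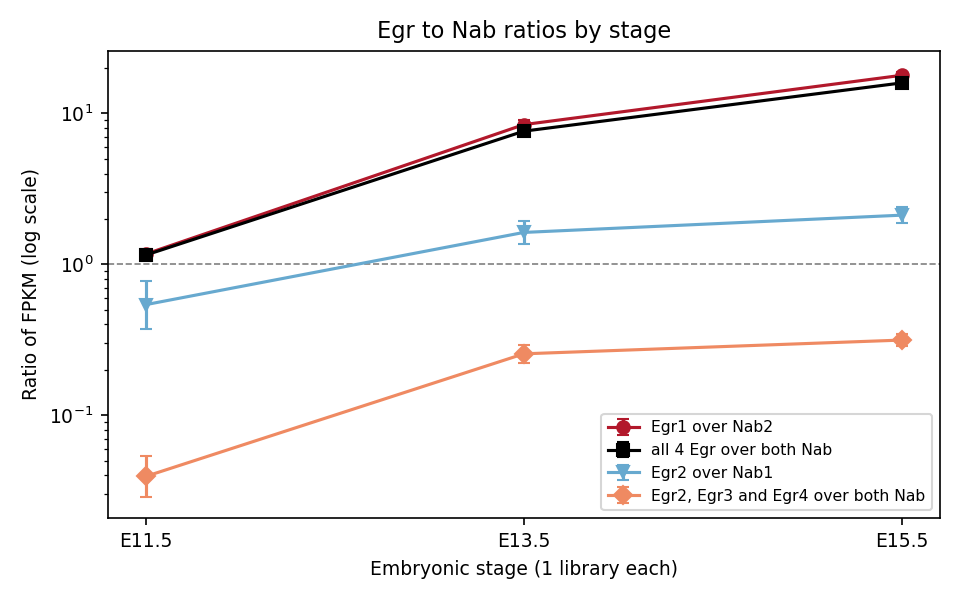
Ratio of FPKM (log scale) for 4 pairings of Egr and Nab genes at each stage, with bars for approximate 95% counting intervals and a dashed line at equal FPKM. The ratio of all Egr to both Nab genes goes from 1.15 to 15.9, and that without Egr1 stays below 1.

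The order of the 6 levels was Egr1, Nab2, Nab1, Egr2, Egr3 and Egr4 at E11.5, and Egr1, Nab2, Egr2, Nab1, Egr3 and Egr4 at E13.5 and E15.5. The ratio of each gene to the next below it had a counting interval above 1 at every stage. The closest neighbours were Egr1 and Nab2 at E11.5, at a ratio of 1.17 (1.08 to 1.26). Whether such a gap exceeds the variation between animals was not measured.

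For the count of differences, genes entered with a mean of at least 1 FPKM over the libraries and an OK status, and were counted at 2-fold or more on the log2(FPKM + 1) scale, which understates differences of low genes. Of the 6 members, Egr1, Egr2, Nab1 and Nab2 passed this filter, and Egr3 and Egr4 did not. Between E11.5 and E13.5, Egr1 (2.58) and Egr2 (1.37) were past 2-fold upward, against 6.0% of 10938 genes compared (7.02% either way), and Nab1 (0.63) and Nab2 (-0.17) stayed within 2-fold. Between E13.5 and E15.5, Egr1 (1.76) was higher, against 3.58% of 10934 genes (4.29% either way), with Egr2 at 0.85, Nab1 at 0.46 and Nab2 at 0.63. Over the whole span Egr1 (4.33), Egr2 (2.21) and Nab1 (1.09) were higher, against 12.6% of 10939 genes (14.8% either way), and Nab2 (0.46) was within 2-fold. No member was 2-fold lower, against 1.02%, 0.713% and 2.14% of genes in the same order. With a pseudocount of 0.1, Egr2 also passed 2-fold at the later step (1.06) and Nab1 at the first (1.17). The 3 comparisons share libraries.

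Seen against all genes compared, 58 of 10938 had a larger difference than Egr1 at the first step, 96 of 10934 at the later step and 43 of 10939 over the span. For Egr2 these numbers were 367, 581 and 324, for Nab1 1462, 1486 and 1231, and for Nab2 8106, 958 and 3063. Egr1 and Egr2 thus stood in the upper 5.31% of differences at each step, while Nab2 stood in the lower part at the first step and the upper part at the later one.

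Genes that feed Egr transcription were compared as a list of 15 kinases and transcription factors. None was 2-fold higher or lower at either step, where 7.02% and 4.29% of all genes were. At those shares a list of 15 would hold few such genes, so the count sets it little apart. The medians were 0.05 and -0.01, beside 0.07 and 0.04 for all genes. Srf was at 4.86, 8.09 and 7.45 FPKM and the ETS partner Elk3 at 14.3, 16.4 and 14.6. Over the whole span Elk4, another ETS partner of SRF, was the member past 2-fold, at 5.0, 9.02 and 12.1 FPKM. Of all genes, 14.8% were past 2-fold either way over that span. RNA levels of this list say nothing of kinase activity.

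Partners in repression were within 2-fold as well, some higher and some lower. Nab proteins recruit the NuRD complex through the helicase Chd4, and Ddx20 is a helicase that binds Egr proteins. Of 13 such genes, 0 were 2-fold higher and 0 lower in any of the 3 comparisons, beside 7.02%, 4.29% and 14.8% of all genes either way. A list of this size at those shares would hold few such genes, so the count sets it little apart. The median over the span was -0.34, beside 0.07 for all genes, with 6 of 13 above 0. Chd4 was at 45.2, 37.7 and 31.9 FPKM, the deacetylase Hdac1 at 30.2, 22.9 and 19.3, and Ddx20 at 6.76, 4.93 and 4.29. The histone-binding subunit gene Rbbp7 ran the other way, at 44.9, 51.7 and 67.6 FPKM, as did Mta3, at 6.26, 8.77 and 9.54, and Gatad2b, at 28.5, 31.1 and 39.6.

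Many other immediate-early genes were also higher at the later stages. Of 26 compared, 10 passed 2-fold upward from E11.5 to E13.5 and 0 downward (median 0.62). At E15.5 against E13.5, 5 were higher and 0 lower (median 0.51). Of all genes, 6.0% and 3.58% were higher at these steps. Only 1.02% and 0.713% were lower, so 0 lower genes in a list of 26 sets it little apart. Fosb, of the AP-1 group, was at 1.85, 19.2 and 20.4 FPKM, the nuclear receptor gene Nr4a1 at 1.10, 10.0 and 19.8 FPKM, Fos at 6.96, 32.4 and 63.4, the RNA-decay factor Zfp36 at 2.46, 8.77 and 32.1, and Klf4 at 3.15, 16.7 and 23.6. Jun was at 55.9, 78.9 and 92.4 FPKM, a difference of 0.71 over the span. Ier2, at 18.9, 16.3 and 20.8 FPKM, and Mcl1, at 20.7, 20.3 and 21.5, differed by 0.13 and 0.05. Over the whole span 17 of 26 were higher (median 1.36), beside 12.6% of all genes, and none had a larger difference than Egr1. Fosb exceeded it at the first step and Zfp36 at the later one. By level, 6 of 29 immediate-early genes were above Egr1 at E11.5, namely Cyr61, Jun, Mcl1, Ier2, Jund and Dusp1, and none at E13.5 or E15.5.

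Since these genes also respond to tissue dissociation and sorting, heat shock genes were read beside them. Of 9, 0 were 2-fold higher at E13.5 (median -0.39) and 3 were higher at E15.5 than at E13.5 (median 0.37): Hspb1, at 1.22, 2.86 and 16.4 FPKM, Hspa1a, at 19.2, 11.8 and 38.7, and Hspa1b. Hspa1a and Hspa1b are near-identical copies whose reads can be exchanged. Among all genes, 6.0% were higher at the first step and 3.58% at the later one, so 0 of 9 lies near the background. The part of handling in the Egr1 levels was not tested.

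**Figure D4:**
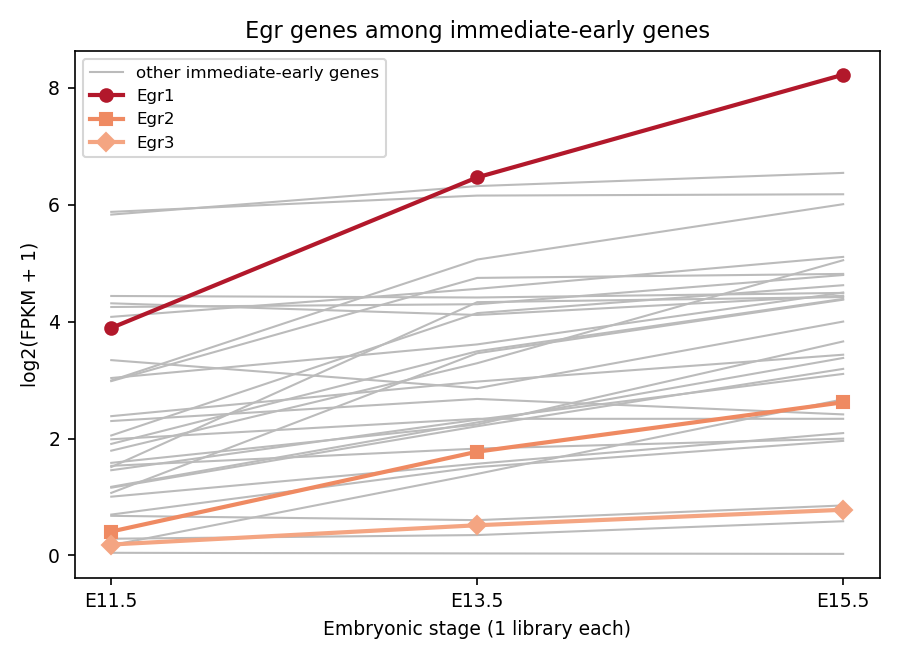
log2(FPKM + 1) of Egr1, Egr2, Egr3 and 29 other immediate-early genes (grey lines) at each stage. Egr1 starts below 6 of the grey lines at E11.5 and lies above all of them at E13.5 and E15.5.

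Tendon genes that are reported to respond to Egr1 or Egr2 were mostly higher at each later stage, with Scx and Tgfb2 as exceptions. Of 11, 10 passed 2-fold upward at E13.5 (median 2.55) and 9 at E15.5 against E13.5 (median 1.96), with 0 lower at either step. The shares of all genes were 6.0% and 3.58% higher and 1.02% and 0.713% lower. Col1a1, the main collagen chain of tendon, was at 16.6, 215 and 1322 FPKM, and the type III chain Col3a1 at 42.5, 213 and 599. The proteoglycans decorin (Dcn) and biglycan (Bgn) were at 1.15, 53.9 and 139 FPKM and at 3.26, 27.1 and 187. Tnmd was listed at 0 and then at 7.57 and 56.8. The growth factor gene Tgfb2 was at 8.32, 32.2 and 24.8 FPKM, and Scx, at 375, 410 and 213, was lowest where Egr1 was highest. The list was chosen with results for tendon matrix in these libraries known. Its counts are therefore a description, and setting them beside the shares of all genes is no test.

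Targets of Egr1 described in other cell types showed smaller differences. Of 12, 9 were compared, of which 4 were 2-fold higher at E13.5 (median 0.67) and 2 at E15.5 against E13.5 (median 0.66), with 0 lower. Beside them, 6.0% and 3.58% of all genes were higher and 1.02% and 0.713% lower. The matrix genes Thbs1, at 4.6, 16.6 and 26.8 FPKM, and Fn1, at 50.2, 111 and 188, passed at the first step. Cd44, the hyaluronan receptor gene, at 0.331, 2.99 and 22.7 FPKM, and the growth factor gene Fgf2, at 0.723, 2.98 and 8.22, passed at both.

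**Figure D5:**
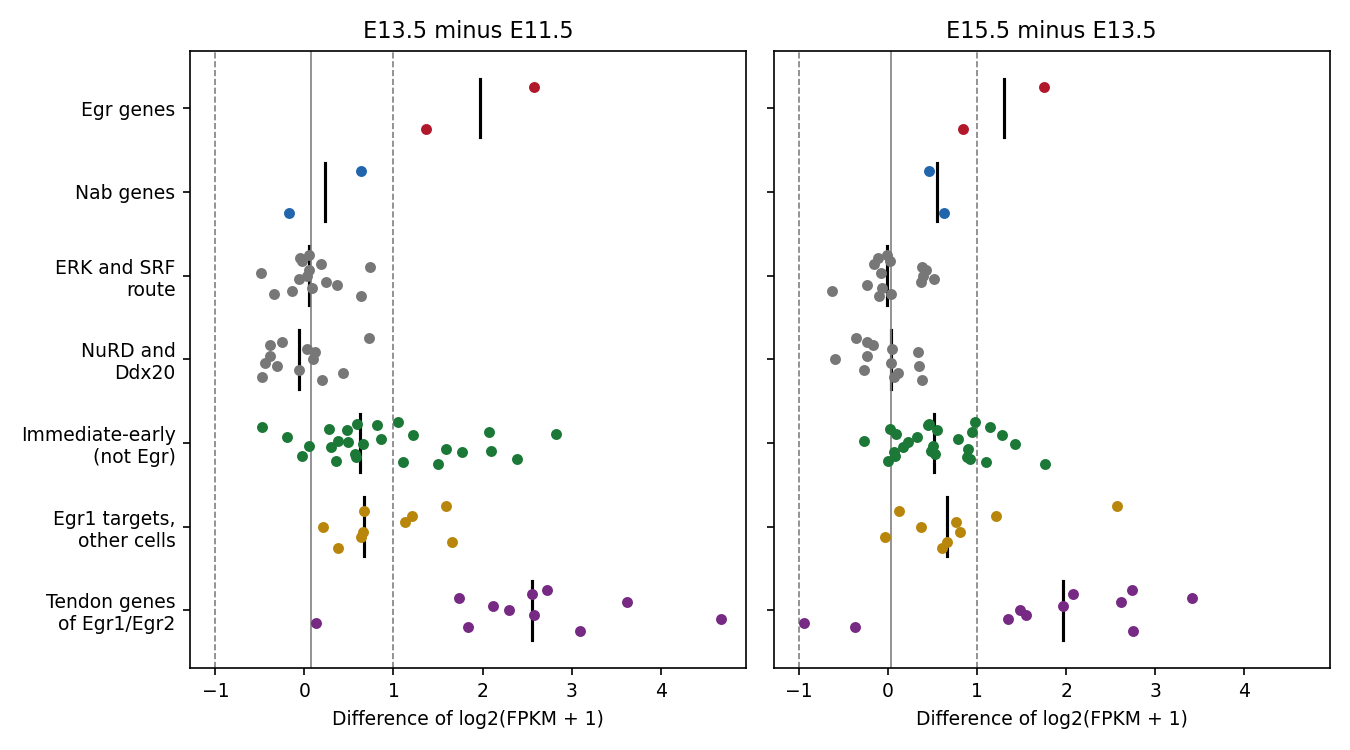
Difference of log2(FPKM + 1) between stages for the genes of 7 lists that passed the filter (points), with the median of each list (black bar), the median of all genes (grey line) and 2-fold either way (dashed). The 15 ERK and SRF genes and the 13 NuRD genes lie within 2-fold at both steps, while 10 and 9 of 11 tendon genes lie beyond it. Of all genes, 7.02% and 4.29% lie beyond it either way. The tendon list was chosen with results for tendon matrix known, so its counts are a description only.

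Egr2 was read beside Schwann cell genes, since it is a defining factor of myelinating Schwann cells. The lineage factor Sox10 was at 0.506, 0.413 and 0.322 FPKM, from about 52.7, 35.2 and 32.8 reads. S100b was at 0.193, 0.234 and 1.17 FPKM and the receptor gene Erbb3 at 0.597, 0.540 and 0.839, both highest at E15.5. Foxd3 was listed at 0 at E11.5 and E13.5 and was at 0.0387 at E15.5. Summed over 9 markers the level was 4.06, 9.71 and 29.8 FPKM, of which Ngfr, a receptor gene also used by mesenchymal cells, made up 1.62, 7.06 and 26.0. Of 7 Egr2 targets in Schwann cells, 3 were compared: Pmp22 was 2-fold higher at both steps, at 10.5, 39.3 and 101 FPKM, while Prx (0.955, 0.999 and 1.14) and Cnp (2.39, 2.31 and 1.89) stayed within 2-fold. The marker sum was highest at E15.5, as Egr2 was, and its part in the Egr2 level was not tested.

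Markers of other cells were also checked, because Egr genes are active in many of them. Skeletal muscle markers were higher with stage, in 9 of 10 compared over the whole span, beside 12.6% of all genes higher and 2.14% lower. Some of them, such as Pax7 at 0.171, 0.590 and 2.79 FPKM, passed the filter only through E15.5. The muscle sums were 13.1, 68.0 and 239 FPKM over 12 genes. Actc1, an actin gene of striated muscle, made up 5.35, 39.3 and 164 FPKM of these sums. The muscle regulator Myog was at 0.880, 2.72 and 12.2 FPKM, the troponin gene Tnnt1 at 2.82, 14.7 and 32.5, and Ckm was listed at 0 at E13.5. Endothelial markers summed to 0.897, 2.68 and 8.84 FPKM over 7 genes, with Cldn5 listed at 0 at E13.5. The 2 compared, Tek and Emcn, were past 2-fold over the span. They passed the filter only through their E15.5 levels, 2.63 and 2.87 FPKM, so that count was close to fixed. Of the endothelial genes under the filter, Kdr differed by 1.32 over the span, Cdh5 by 0.46, Pecam1 by 0.43, Cldn5 by 0.03 and Tie1 by -0.02. Epidermal markers summed to 1.19, 4.21 and 10.0 FPKM over 6 genes (Krt15 at 0 at E11.5). The 1 of 2 compared past 2-fold, Krt5, also passed the filter only through its E15.5 level, 3.60 FPKM. Neuronal markers summed to 5.83 FPKM in the first library and 12.4 in the last over 7 genes (2 of 3 compared). Leukocyte and macrophage markers summed to 1.91, 0.728 and 1.31 FPKM over 7, with Ptprc, the pan-leukocyte gene, at 0 to 0.0277. Cartilage markers summed to 150.2, 225 and 312 FPKM over 7 (3 higher and 1 lower of 7 compared) and bone markers to 5.53, 19.4 and 16.2 over 6 (2 of 3 compared higher). Col2a1 made up 67.3, 138 and 230 FPKM of the cartilage sums, and Acan, Matn1 and Col9a1 were also highest at E15.5. Sox9, at 56.2, 41.0 and 22.5 FPKM, was lowest at E15.5, as were Sox5 and Sox6. The muscle, Schwann cell, endothelial, epidermal, neuronal and cartilage sums have the stage order of Egr1, Egr2 and Nab1, though not every marker in them does. The part of these cells in those levels was not tested. In a bulk sample, more cells that express a gene and more RNA per cell cannot be told apart.

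Genes with the profile most like each member were ranked among 10927 others by the distance between centred log2(FPKM + 1) profiles over the 3 libraries. With 3 points this is a description only, and many genes lie close. The added 1 FPKM shrinks differences of low genes on this scale, so genes that lie close can differ in fold. Nearest to Egr1 were S100a10, at 2.35, 20.6 and 71.6 FPKM (distance 0.089), Acan (0.109), Akap12 (0.131), Col5a1 (0.174) and Prss35 (0.218). Of these, Acan encodes the proteoglycan aggrecan and Col5a1 a chain of type V collagen. Nearest to Egr2 were Olfml3, at 6.35, 18.4 and 34.0 FPKM (distance 0.031), Acat1 (0.038) and Timp2 (0.048), the last an inhibitor of matrix metalloproteinases. Nearest to Nab1 were Rbms2, Erlec1 and Rhbdf1, and nearest to Nab2 were 2010204K13Rik, Rsph9 and Ifitm5. Egr2 lay at a distance of 1.51 from Egr1, Nab1 at 2.31 and Nab2 at 2.82. The distance of Egr2 from Egr1 holds for this scale, where their span differences were 2.21 and 4.33. In FPKM they were 15.7-fold and 21.5-fold.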

How the data were processed

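The authors deposited FPKM, 1 value per RefSeq transcript and library, together with a coverage signal, and the headers name a status column as well. The submitters' processing notes list Bowtie 0.12.7, TopHat 1.4.1 and the build mm9 without saying what each did. Strand handling and annotation release: not given in the sources used here. FPKM was summed per gene symbol. Genes entered comparisons when their mean reached 1 FPKM, with an OK status for every transcript, and were called at 2-fold on the log2(FPKM + 1) scale. Coverage was a constant multiple of FPKM (1.61, 1.32 and 1.58 in stage order). It served to estimate reads, with 42 covered bases, the commonest low value of long single-transcript genes, taken as 1 read. Intervals of levels and fold differences are Poisson and conditional binomial, those of sums and shares use a normal approximation on the log scale. Coordinates of the tables are mm9 and those of printed sequences GRCm38; neither was converted. Named genes were all 6 members, the 5 (Egr1) or 3 (others) nearest profiles, and list genes, largest differences first, with Srf, Elk3, Stat6 and Scx. Other list genes named for their level values, among them Chd4, Hdac1, Rbbp7, Jun, Sox10 and S100b, were chosen after their values were seen. Members and the 19 lists were chosen with earlier results of these data known. Python 3.11.15, pandas 2.3.3 and SciPy 1.17.1 were used, and the calls were tested on simulated data. The simulation held counting error only, with differences planted in genes with a mean of at least 5 FPKM. It did not cover variation between animals, sorts and amplifications.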

Additional observations from a re-analysis of the deposited data

How the results depend on the processing

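No paired analysis was possible because each stage has 1 library, and for the same reason no replicate could be left out. No direction of Egr1, Egr2, Egr3, Egr4 or Nab1 turned under 5 alternatives (pseudocount 0.1, rescaling to a sum of 1000000, size factors, the most abundant transcript alone, status ignored). Only Nab2 between E11.5 and E13.5 did, at 0.12 with the most abundant transcript. A pseudocount or the status cannot turn a direction, and the Egr genes and Nab1 have 1 transcript each. For these genes only rescaling and size factors could have turned it. The log2 difference over the whole span ranged from 4.25 to 4.42 for Egr1, 2.18 to 3.62 for Egr2, 1.06 to 1.84 for Nab1 and 0.32 to 0.67 for Nab2. The Egr to Nab ratio does not depend on scaling. It was 1.54, 8.25 and 18.1 in stage order with the most abundant transcript alone, 8.44 and 17.9 at E13.5 and E15.5 for Egr1 over Nab2, and 0.0394, 0.256 and 0.315 without Egr1. Rescaling raised FPKM sums of 159253, 155108 and 178674 in stage order to 1000000. The pseudocount and the filter stayed at 1, so both weighed less. At the first step Egr3 and Nab1 stood at 1.02 and 1.14 when rescaled, and at 0.32 and 0.61 with size factors. Members at least 2-fold higher at E13.5 numbered 4 when rescaled, Egr3 and Nab1 included, and 1 when the mean had to reach 5 FPKM. Over the span they numbered 1 with that filter, since only Egr1 and Nab2 pass it, and at the later step 2 with a pseudocount of 0.1.

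Counts over all genes moved with the pseudocount, the filter and the scaling. From E11.5 to E13.5 they were 1154 higher and 191 lower with a pseudocount of 0.1, 1748 and 350 when rescaled, and 381 and 43 under the 5 FPKM filter. From E13.5 to E15.5 they were 720 and 515 when rescaled (58.3% of calls higher, against 83.4% as deposited), 214 and 42 with the stricter filter, and 189 lower with a pseudocount of 0.1. Over the span they were 2310 and 913 when rescaled (71.7% higher, against 85.5%), 712 and 124 with the stricter filter, and 431 lower with a pseudocount of 0.1. Rescaling moved the median difference of all genes to 0.15, -0.15 and -0.04 from 0.07, 0.04 and 0.07. With the stricter filter 3 immediate-early genes were higher at the later step and 11 over the span, and with single transcripts 1 of the NuRD genes was higher over the span. Rescaling puts 13967 genes past the filter in the first comparison instead of 10938, since the filter and pseudocount stay at 1 on larger values. The stricter filter leaves 5772. Other causes were not tested. Depth limits Egr3 and Egr4, with at most 38.3 and 11.8 reads.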

Other observations

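Other zinc-finger factors of GC-rich sites differed less than Egr1. Sp1, a general activator, was at 12.2, 18.6 and 22.9 FPKM in stage order and Sp3, its relative, at 17.7, 20.2 and 22.1, both within 2-fold over the whole span. Wt1, whose fingers resemble those of Egr proteins, was at 0.0471, 0.171 and 0.282 FPKM. Egr1 was thus below Sp3 at E11.5 and above Sp1, Sp3 and Wt1 at E13.5 and E15.5.

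Fosl2, Junb and Jund, further AP-1 genes, were, like Egr1, highest at E15.5. Fosl1, close to the detection limit at 0.0320, 0.0243 and 0.0190 FPKM, was lowest there. Fosl2 was at 0.129, 1.63 and 5.37 FPKM, Junb at 2.0, 3.72 and 11.7 and Jund at 18.0, 18.7 and 26.8.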
